A study of Mus musculus with 2 samples.

Results

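Iron is stored inside ferritin, a hollow shell built of heavy chains, encoded by Fth1, and light chains, encoded by Ftl1. The heavy chain oxidises incoming iron and the light chain helps the mineral core to form. Cells take up iron through the transferrin receptor, encoded by Tfrc, and release it from heme through heme oxygenase 1, encoded by Hmox1. The transcription factor NRF2, which pairs with small MAF proteins and is opposed by BACH1, drives a set of defence genes under oxidative stress. They include Gclm, the modifier subunit of the enzyme that makes the glutathione precursor, Nqo1, a quinone reductase, Txnrd1, the cytosolic thioredoxin reductase, Prdx1, a peroxidase, Txn1, the thioredoxin that recharges peroxidases, and Srxn1, the sulfiredoxin that repairs overoxidised ones. In injured muscle, macrophages take up heme and iron from damaged fibres and blood.

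These 10 genes, found by symbol among the 32285 features counted in both libraries, were described in quiescent and activated muscle stem cells, called satellite cells (SCs). All 10 had unique molecular identifiers (UMIs, tags that count single transcripts) in both libraries. Both libraries came from the tibialis anterior of mice aged 8 weeks that carried Pax7 CreERT2/+ together with Rosa26 mTmG/+. In these animals a Cre that acts only with tamoxifen is made from the Pax7 gene. The reporter thus marks cells that expressed Pax7 while this Cre was active, and their descendants. The quiescent library (QSC) held sorted cells of uninjured muscle, and the activated library (ASC) held sorted cells taken 1.5 days after cardiotoxin (CTX), which destroys muscle fibres. Each group was 1 library made from a pool of mice, so group and library cannot be told apart and nothing could be tested against replicates. Every interval below is an exact 95% interval that covers counting error only.

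After filtering, 516 of 766 QSC barcodes with 1162091 UMIs and 1468 of 1650 ASC barcodes with 8895815 UMIs were kept, with medians of 2155 and 3502 UMIs and of 4.44% and 0.297% mitochondrial UMIs. Many barcodes were rich in fibre transcripts. At least 5% of UMIs came from 10 contractile genes of muscle fibres in 104 QSC barcodes (20.2%) and 954 ASC barcodes (65.0%), here called contractile-high, with 25 QSC and 228 ASC barcodes lying between 2.5% and 10%. In the QSC library these barcodes held 97.9 CPM (UMIs scaled to a total of 1000000) summed over 10 quiescence markers. Of the 10, 4 were detected, and Calcr, Cd34 and Spry1 were among those at 0. The rest of the muscle barcodes held 4133 CPM. In the ASC library the contractile-high barcodes held 52.1 CPM of these markers, with 10 of 10 detected. They held 519 CPM summed over activated myoblast markers, with 8 of 8 detected. The rest of the muscle barcodes, called contractile-low muscle, numbered 369 QSC and 406 ASC barcodes, and followed their labels. The summed quiescence markers were at 4133 CPM in QSC and 952 CPM in ASC, the activated myoblast markers at 463 and 1959 CPM, and the cycling markers at 57.9 and 1188 CPM. Most contractile-low QSC barcodes lay in a different cluster from the ASC ones, cluster 2 against clusters 1, 5 and 10. Cluster 5, named cycling-like, held 66 QSC beside 145 ASC barcodes, although all kept QSC barcodes held only 51 UMIs of the cycling markers. The contractile-high QSC barcodes lay mostly in cluster 9 and the ASC ones in clusters 0, 3, 4, 6 and 7. Macrophage/monocyte-like barcodes numbered 16 in QSC and 83 in ASC, and neutrophil-like ones 19 in ASC. The libraries shared 4 barcode sequences, of which 2 QSC and 3 ASC barcodes were kept.

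Ferritin and transferrin receptor transcripts carry a short stem-loop, the iron-responsive element, to which iron regulatory proteins bind when iron is scarce. In a 5' untranslated region (UTR) such binding blocks translation, and in the 3' UTR of Tfrc it stabilises the transcript, so transcript counts of the ferritin genes need not follow ferritin protein. The elements are shown because they are the letters through which iron acts on these transcripts after they are made. They were found in the GENCODE M21 transcripts of the GRCm38 assembly as the loop CAGTGN closed by 5 base pairs and a bulged C. Such a stem-loop was present in the 5' UTR of 0.148% of 20899 genes and the 3' UTR of 0.595% of 21685 genes, and in 3 of the 10 members. A match is a description of the letters and not a proven site. Capitals mark the loop of 6 bases.
Fth1, 5' UTR, chr19:9982732-9982760, plus strand: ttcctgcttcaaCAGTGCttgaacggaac
Ftl1, 5' UTR, chr7:45459779-45459807, minus strand: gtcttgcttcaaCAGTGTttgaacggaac
Tfrc, 3' UTR, chr16:32631219-32631247, plus strand: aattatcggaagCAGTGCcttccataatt
Tfrc, 3' UTR, chr16:32631598-32631626, plus strand: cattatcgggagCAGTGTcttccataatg
Tfrc, 3' UTR, chr16:32631663-32631691, plus strand: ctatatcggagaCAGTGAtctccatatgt
Tfrc, 3' UTR, chr16:32631710-32631738, plus strand: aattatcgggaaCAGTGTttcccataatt
The same 29 letters as in Ftl1 occurred in Ftl1-ps1, a counted gene on chromosome 13 that is a near copy of Ftl1. It held 19 QSC and 121 ASC UMIs, and reads could be split between it and Ftl1.

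NRF2 binds the antioxidant response element, whose core is TGACNNNGC. The core was searched on both strands of the RefSeq promoters (GRCm38.p6, 300 bases, 250 of them before the annotated start), in which 9 members had 13 entries. It occurred in 12.4% of all 32851 entries and in 4 of the 13, each of a different member. It lay 134 bases before the start of Gclm, 133 before that of Prdx1, 92 before that of 1 of 3 Txnrd1 starts, and 28 bases after that of Srxn1. The Prdx1 match also contains the AP-1 motif TGACTCA. They are shown, with the core in capitals, because these genes differed widely in their ratios below. All 4 cores lie on the minus strand and are written 5' to 3' on it.
Gclm, chr3:122245413-122245441: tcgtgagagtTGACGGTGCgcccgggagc
Prdx1, chr4:116685456-116685484: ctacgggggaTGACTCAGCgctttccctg
Txnrd1, chr10:82859104-82859132: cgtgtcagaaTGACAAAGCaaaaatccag
Srxn1, chr2:152105542-152105570: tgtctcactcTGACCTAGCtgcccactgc

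Over all kept barcodes, 2 of the members past the level floor, Txn1 and Srxn1, were at least 2-fold higher in ASC, and 0 were at least 2-fold lower. Of the 10 members, 8 passed a floor of 10 CPM in the mean of both libraries, and Tfrc and Nqo1 did not. Among all 7353 genes past that floor, 13.6% were at least 2-fold higher and 22.6% at least 2-fold lower. The median log2 ratio of the 8 members was 0.69, beside -0.10 for all genes past the floor. Levels are CPM of the library total, and since 1 tag is counted per transcript they are not scaled by gene length. The plot of levels in both libraries shows the order of the members, with Fth1 the highest and Tfrc and Nqo1 the lowest.

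**Figure D1:**
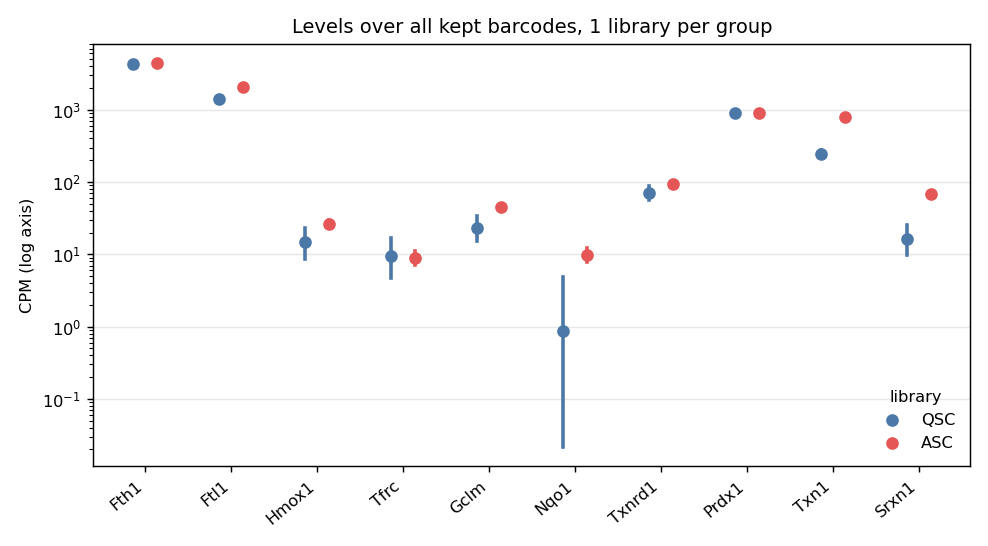
Level of each of the 10 genes in the QSC library (blue) and the ASC library (red) over all kept barcodes, in CPM on a log axis. Points are the summed counts and bars the exact 95% Poisson intervals of 1 library each. Txn1 stood at 244 CPM in QSC and 803 CPM in ASC, and Fth1 at 4232 and 4359 CPM.

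Thioredoxin and sulfiredoxin carried the clearest difference. Txn1 stood at 244 CPM in QSC (284 UMIs, interval 217 to 275) and 803 CPM in ASC (7146 UMIs, 785 to 822), a fold of 3.29 (2.92 to 3.71). The intervals of both libraries lay far apart. The difference was similar in both muscle classes, 3.79-fold (3.28 to 4.40) in contractile-low and 4.22-fold (3.05 to 6.01) in contractile-high barcodes. After each barcode was thinned to 1200 UMIs, a Txn1 UMI was seen in 22.7% of QSC barcodes (111 of 488, 19.1 to 26.7) and 52.9% of ASC barcodes (725 of 1371, 50.2 to 55.6). The thinning left out 28 QSC and 97 ASC barcodes, and without it the shares were 37.0% and 80.0%. No class of barcode is known to lack these genes, so the part of free RNA in such shares was not tested.

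Srxn1 stood at 16.3 CPM in QSC (19 UMIs, 9.84 to 25.5) and 67.2 CPM in ASC (598 UMIs, 61.9 to 72.8), a fold of 4.11 (2.61 to 6.88). Its ratios in both classes lay further apart than those of Txn1, a difference that was not tested. In contractile-low muscle the levels were 17.7 CPM (15 UMIs) in QSC and 30.7 CPM (160 UMIs) in ASC, a fold of 1.73 (1.02 to 3.16). In contractile-high barcodes they were 14.0 CPM (3 UMIs) and 132 CPM (409 UMIs), a fold of 9.46 (3.21 to 46.1). Within the ASC library Srxn1 was 4.31-fold higher in contractile-high than in contractile-low barcodes (3.58 to 5.21). In the QSC library the same ratio could not be told from 1 at this depth, with 3 against 15 UMIs and a log2 ratio of -0.34 (-2.77 to 1.48). Thinned to 1200 UMIs, 1.84% of QSC and 11.2% of ASC barcodes had a Srxn1 UMI, and 4.74% of contractile-low and 14.4% of contractile-high ASC barcodes. Unthinned, the shares in QSC and ASC were 3.10% and 27.8%.

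The glutathione subunit gene Gclm stood at 23.2 CPM in QSC (27 UMIs) and 45.6 CPM in ASC (406 UMIs), a fold of 1.96 (1.33 to 3.02) that lay just under the 2-fold line. Its levels in QSC and ASC were 26.0 and 39.9 CPM in contractile-low barcodes (log2 0.62, -0.02 to 1.32) and 14.0 (3 UMIs) and 56.9 CPM (176 UMIs) in contractile-high barcodes (log2 2.03, 0.45 to 4.32). Gclm overlaps the counted gene Gm17494 on the other strand, so its counts are less certain. Nqo1 was near the limit of detection in QSC, with 1 UMI (0.861 CPM, 0.0218 to 4.79) against 87 UMIs in ASC (9.78 CPM, 7.83 to 12.1), a log2 ratio of 3.51 (0.99 to 8.83). Of its 87 ASC UMIs, 69 lay in contractile-high barcodes (22.3 CPM) and 16 in contractile-low ones (3.07 CPM). In the contractile-high QSC barcodes it had 0 UMIs, so the log2 ratio was at least 0.67, with the floor of 3 counts standing for 0.

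In CPM, Txnrd1 and Prdx1 differed little between the libraries. Txnrd1 stood at 70.6 CPM in QSC (82 UMIs) and 94.1 CPM in ASC (837 UMIs), a fold of 1.33 (1.06 to 1.69). Its log2 ratio was 0.28 (-0.08 to 0.66) in contractile-low and 1.07 (0.07 to 2.30) in contractile-high barcodes, the latter from 8 QSC UMIs. Txnrd1 overlaps Gm38560 on the other strand and Eid3 on its own strand, so its counts are less certain. Prdx1, which has the promoter match with an AP-1 motif, stood at 897 CPM in QSC (1042 UMIs) and 889 CPM in ASC (7908 UMIs). Its log2 ratio of -0.01 (-0.11 to 0.08) bounds any difference from counting at under 0.11 on the log2 scale, for CPM only. TMM scaling shifted every log2 ratio over all kept barcodes up by 0.31, which is more than that bound. A Prdx1 UMI was seen in 60.2% of QSC and 61.3% of ASC barcodes after thinning, and in 77.7% and 86.4% before it. Of the 4 genes with the promoter core, the ratios thus ran from 0.991-fold for Prdx1 to 4.11-fold for Srxn1.

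Both ferritin chains were among the most abundant members, and their ratios differed. Fth1 stood at 4232 CPM in QSC (4918 UMIs) and 4359 CPM in ASC (38774 UMIs), a fold of 1.03 whose interval ends at 1.06. Within each muscle class it was slightly lower in ASC. It was 3550 against 2991 CPM in contractile-low (log2 -0.25, -0.30 to -0.19) and 6280 against 5454 CPM in contractile-high barcodes (log2 -0.20, -0.28 to -0.12). The value in contractile-low barcodes turned to 0.056 under TMM scaling, so its direction depends on the scaling, and the one in contractile-high barcodes became -0.08. Over all kept barcodes, TMM scaling shifted every log2 ratio up by 0.31, which put Fth1 at 0.35.

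Ftl1 stood at 1426 CPM in QSC (1657 UMIs) and 2074 CPM in ASC (18450 UMIs), a fold of 1.45 (1.38 to 1.53). It was higher in ASC in both classes, 1396 against 1864 CPM in contractile-low (log2 0.42, 0.33 to 0.51) and 345 (74 UMIs) against 676 CPM (2089 UMIs) in contractile-high barcodes (log2 0.97, 0.63 to 1.32). Without the non-muscle clusters its log2 ratio over all barcodes was 0.25 in place of 0.54. The summed CPM of 15 macrophage/monocyte markers was 895 in QSC and 1886 in ASC over all kept barcodes, and 87.5 (9 of 15 detected, with Adgre1, Itgam and Ly6c2 among the 6 at 0) and 168 (15 of 15 detected) in contractile-low muscle. Their part in the Ftl1 difference within the muscle class was not tested.

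Hmox1 was sparse and concentrated in few cells. It had 17 UMIs in QSC (14.6 CPM, 8.52 to 23.4) and 232 in ASC (26.1 CPM, 22.8 to 29.7), a fold of 1.78 (1.09 to 3.11). Of the 17 QSC UMIs, 12 lay in the 16 macrophage/monocyte-like barcodes, and of the 232 ASC UMIs, 103 lay in the 83 barcodes of that class. A single ASC barcode held 35 of the 232, with 13 in the next. Without the non-muscle clusters the libraries held 3 and 117 UMIs, and the log2 ratio was 2.32 (0.74 to 4.62) in place of 0.83. In contractile-low muscle 2 and 70 UMIs gave 2.36 and 13.4 CPM, a fold of 5.68 (1.51 to 47.8). The mean of these 2 levels was under the floor of 10 CPM, so Hmox1 is not among the members counted in that class. Tfrc was too sparse to compare, with 11 UMIs in QSC (9.47 CPM, 4.73 to 16.9) and 80 in ASC (8.99 CPM, 7.13 to 11.2), a log2 ratio of -0.07 (-0.99 to 0.98). Its 80 ASC UMIs lay mostly in the contractile-low class (68 UMIs, 13.0 CPM) and the cycling-like cluster 5 was at 18.6 CPM.

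Split by class, the 2-fold line gave different counts. In contractile-low muscle 1 of the 8 members past the floor, Txn1, was at least 2-fold higher in ASC, beside 17% of 7306 genes, and 0 were at least 2-fold lower, beside 23.1%. The median log2 ratio of the members was 0.52, beside -0.10 for all genes. In contractile-high barcodes 5 of 9 members, Hmox1, Gclm, Txnrd1, Txn1 and Srxn1, were at least 2-fold higher, beside 18.3% of 5086 genes, and 0 were lower, beside 12.1%. Their median was 1.07, beside 0.11. Of these 5, Hmox1 rested on 1 QSC UMI and its interval included no difference (log2 1.74, -0.81 to 7.07). Hmox1 and Nqo1 passed the floor here only through their ASC level, so they had to be higher in ASC. The contractile-high QSC barcodes held 214486 UMIs in all, so 1 UMI was worth more than for any other group of muscle barcodes, and the floor of 3 counts was 14.0 CPM. The summed macrophage/monocyte markers were at 93.2 CPM in QSC and 351 CPM in ASC in this class, with 8 and 15 of 15 detected and C1qc, Cd68 and Adgre1 among those at 0 in QSC, and their part in the ratios was not tested. The plot of ratios by class shows Fth1, Prdx1 and Txn1 with close values in both classes, and wide intervals for Hmox1, Tfrc and Nqo1.

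**Figure D2:**
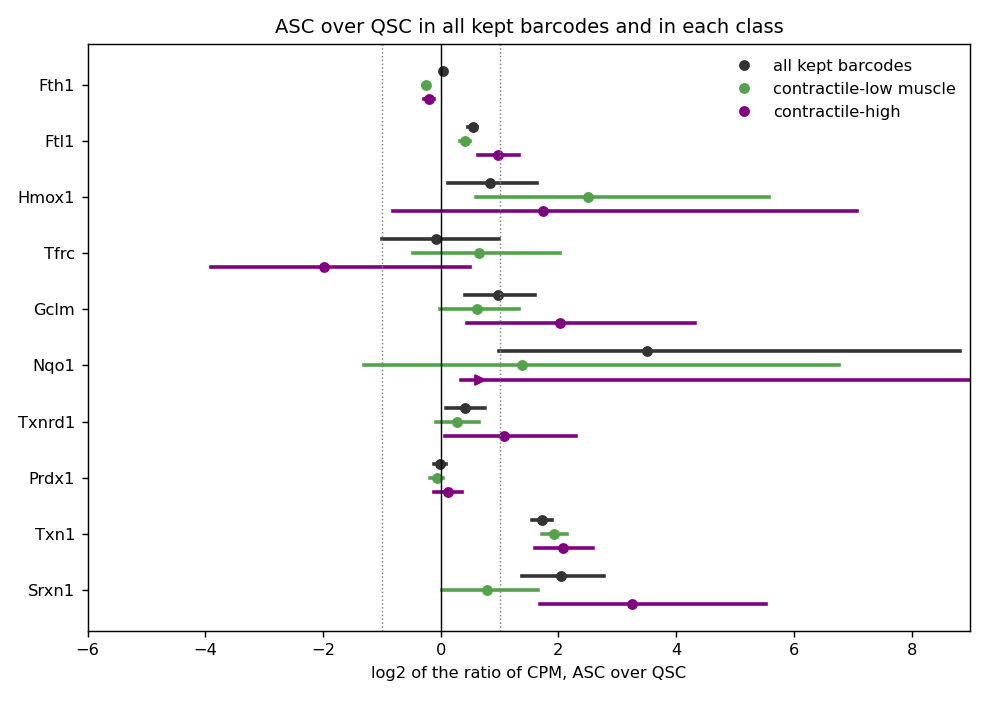
Log2 of the ratio of CPM, ASC over QSC, for each gene in all kept barcodes (black), contractile-low muscle (green) and contractile-high barcodes (purple). Bars are exact 95% conditional binomial intervals, dotted lines mark 2-fold, and the arrowhead marks a lower bound for Nqo1, which had 0 QSC UMIs in that class. Srxn1 lies at 0.79 in contractile-low and 3.24 in contractile-high barcodes.

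Comparing the 2 classes within a library leaves library and group aside. In QSC, 0 of 8 members were at least 2-fold higher in contractile-high than in contractile-low barcodes, beside 21.3% of 6714 genes, and 2 were lower, Ftl1 and Txnrd1, beside 41.9%. In ASC, 2 of 9 were higher, Nqo1 and Srxn1, beside 18% of 6358 genes, and 1 was lower, Ftl1, beside 37.7%. Nqo1 passed the floor here only through the contractile-high level, so it had to be higher there. Ferritin split the same way in both libraries. Fth1 was higher in contractile-high barcodes, by 1.77-fold in QSC (1.66 to 1.89) and 1.82-fold in ASC (1.78 to 1.86). Ftl1 was lower, with log2 ratios of -2.02 (-2.38 to -1.68) and -1.46 (-1.53 to -1.40). A contractile limit of 2.5% changed the Ftl1 value in ASC to -0.12, and with it 36 of the 85 barcodes of the macrophage/monocyte-like cluster fell into the contractile-high class, against 2 at the limit of 5%. Nqo1 was 7.28-fold higher in contractile-high ASC barcodes (4.18 to 13.4). Gclm (log2 0.51, 0.22 to 0.81) was higher there, Txnrd1 (-0.40, -0.63 to -0.18) was lower, and Txn1 (-0.26) and Prdx1 (-0.13) turned to 0.15 and 0.046 when each barcode was given the same weight.

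The ratio of the 2 ferritin chains within a class does not depend on how the libraries were scaled. In contractile-high barcodes there were 0.0549 Ftl1 UMIs per Fth1 UMI in QSC (0.0429 to 0.0694) and 0.124 in ASC (0.118 to 0.130). Contractile-low muscle had 0.393 in QSC (0.367 to 0.421) and 0.623 in ASC (0.608 to 0.639). In both classes the ratio was thus higher in the ASC library, with intervals that did not overlap. Macrophage/monocyte-like barcodes had the highest ratios of these classes, 1.30 in QSC (1.07 to 1.58) and 1.11 in ASC (1.06 to 1.15), and neutrophil-like ones 0.810 (0.736 to 0.891). The median over single barcodes with at least 20 UMIs of both genes together kept this order of the classes. In contractile-high barcodes it was 0.0429 in QSC (17 of 104 barcodes) and 0.0938 in ASC (355 of 954). In contractile-low muscle it was 0.314 (26 of 369) and 0.550 (299 of 406), with overlapping quartiles of 0.155 to 0.688 and 0.35 to 0.845. Macrophage/monocyte-like barcodes had 1.39 (10 of 16) and 1.19 (74 of 83). The QSC medians of the muscle classes thus cover a small part of their barcodes. Of 10 such medians, 8 lay outside the interval of the summed ratio. Over all kept barcodes the order of the libraries turned, with medians of 0.290 in QSC and 0.25 in ASC against summed ratios of 0.337 and 0.476.

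**Figure D3:**
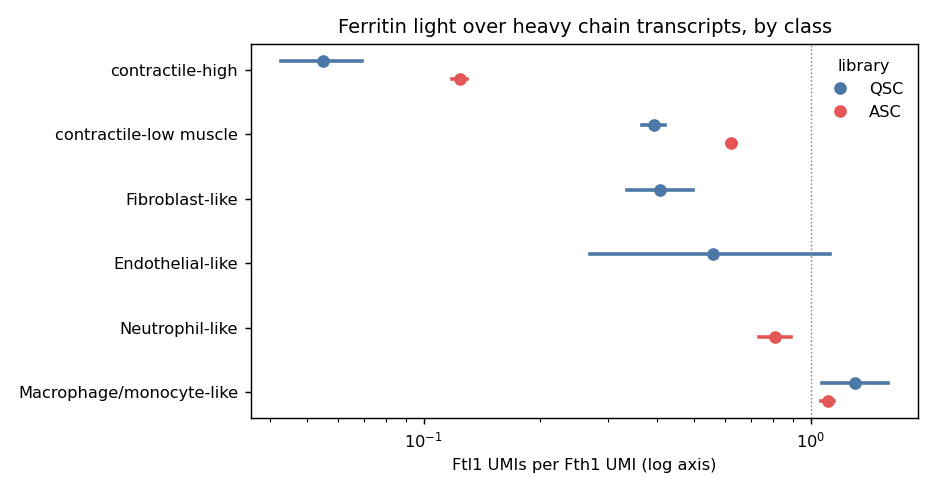
Ftl1 UMIs per Fth1 UMI, on a log axis, in each class of barcodes with at least 10 barcodes, for QSC (blue) and ASC (red). Points are ratios of summed UMIs and bars exact 95% binomial intervals. The ratio runs from 0.0549 in contractile-high QSC barcodes to 1.30 in macrophage/monocyte-like QSC barcodes.

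Among the cells other than muscle, ferritin and heme oxygenase were highest. In the 83 ASC macrophage/monocyte-like barcodes Fth1 stood at 9843 CPM, Ftl1 at 10879 CPM and Hmox1 at 194 CPM, which were 3.29-fold, 5.84-fold and 14.5-fold the levels in contractile-low ASC barcodes. Without the 1 barcode that held 35 of the 103 Hmox1 UMIs of this class, Hmox1 stood at 130.1 CPM, which was 9.69-fold (6.84 to 13.7). These were 3 of 8 members at least 2-fold higher, beside 21.2% of 7009 genes, and 0 were at least 2-fold lower, beside 26.8%. Prdx1 was 1.42-fold higher (1.31 to 1.54) and Txn1 was lower by a log2 ratio of -0.64 (-0.81 to -0.47). Gclm (39.5 against 39.9 CPM), Txnrd1 (82.9 against 103 CPM) and Srxn1 (41.4 against 30.7 CPM) had intervals that included no difference. The 16 QSC barcodes of this kind, of 32671 UMIs, had Fth1 at 5693 CPM, Ftl1 at 7407 CPM and Hmox1 at 367 CPM (12 UMIs, 190 to 642). After thinning, a Hmox1 UMI was seen in 17.3% of ASC and 41.7% of QSC barcodes of this class (14 of 81 and 5 of 12), against 2.74% and 0.546% of contractile-low ones. Unthinned, the shares were 34.9%, 37.5%, 11.6% and 0.542% in the same order. Muscle contractile RNA was present here too, at a median of 2.38% of UMIs in ASC. The 19 neutrophil-like barcodes had the highest ferritin of any class, with Fth1 at 27414 CPM (969 UMIs) and Ftl1 at 22208 CPM (785 UMIs), and both genes made up 4.96% of their UMIs. These levels are set side by side in the map of classes.

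**Figure D4:**
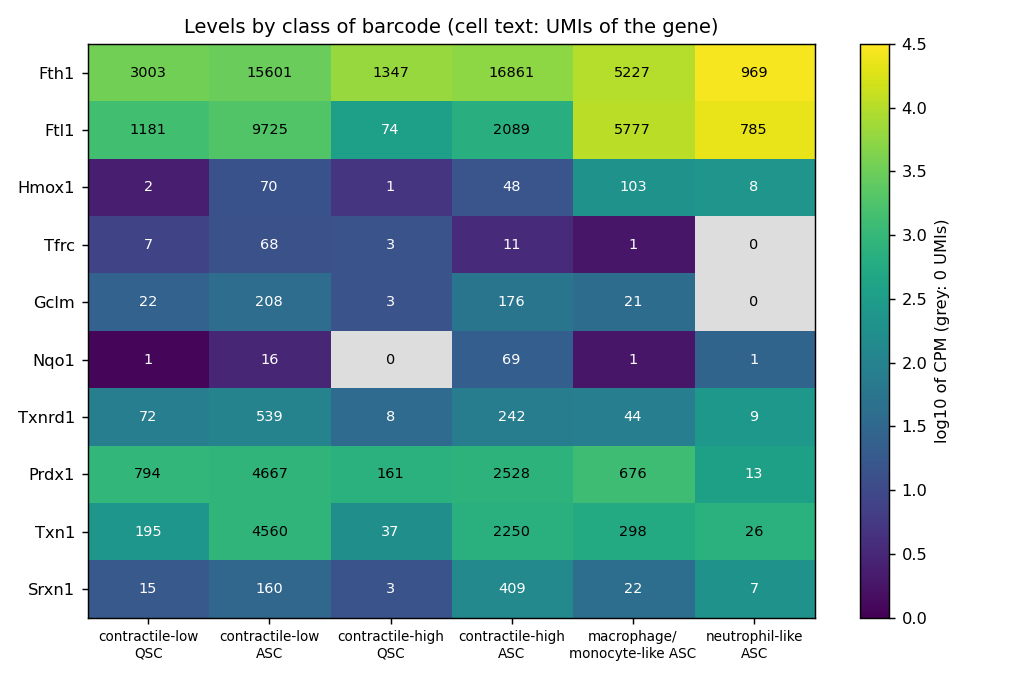
Level of each gene in 6 classes of barcodes, as log10 of CPM (colour) with the UMIs of the gene written in each cell and grey where there are 0 UMIs. Ferritin and Hmox1 are highest in the 2 immune-like classes, and Nqo1 and Srxn1 are higher in the contractile-high ASC class than in contractile-low ASC barcodes.

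The clusters, made without the members or the pathway genes, gave finer detail, in 15 groups of at least 20 barcodes. Srxn1 peaked at 341 CPM in ASC cluster 7, whose leading genes Ankrd1, Csrp3 and Xirp1 encode proteins of stressed or stretched fibres, and stood at 174 CPM in the neutrophil-like cluster 11 (8 UMIs, 75.1 to 343), 151 CPM in cluster 3 and 117 CPM in cluster 4. Txn1 peaked at 1520 CPM in ASC cluster 3, led by Mt3 and Trim63, followed by 1047 CPM in the cycling-like cluster 5. In the QSC clusters it ran from 153 CPM in cluster 9 (30 UMIs) to 279 CPM in cluster 4 (15 UMIs, 156 to 461). These values lay below that of every ASC cluster, of which the lowest was 413 CPM in cluster 6 (345 to 489). The intervals of QSC cluster 4 and ASC cluster 6 overlapped. Fth1 ran from 2706 CPM in ASC cluster 1 to 26634 CPM in the neutrophil-like cluster 11. Prdx1 ran from 457 CPM in cluster 11 to 1251 CPM in cluster 8.

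**Figure D5:**
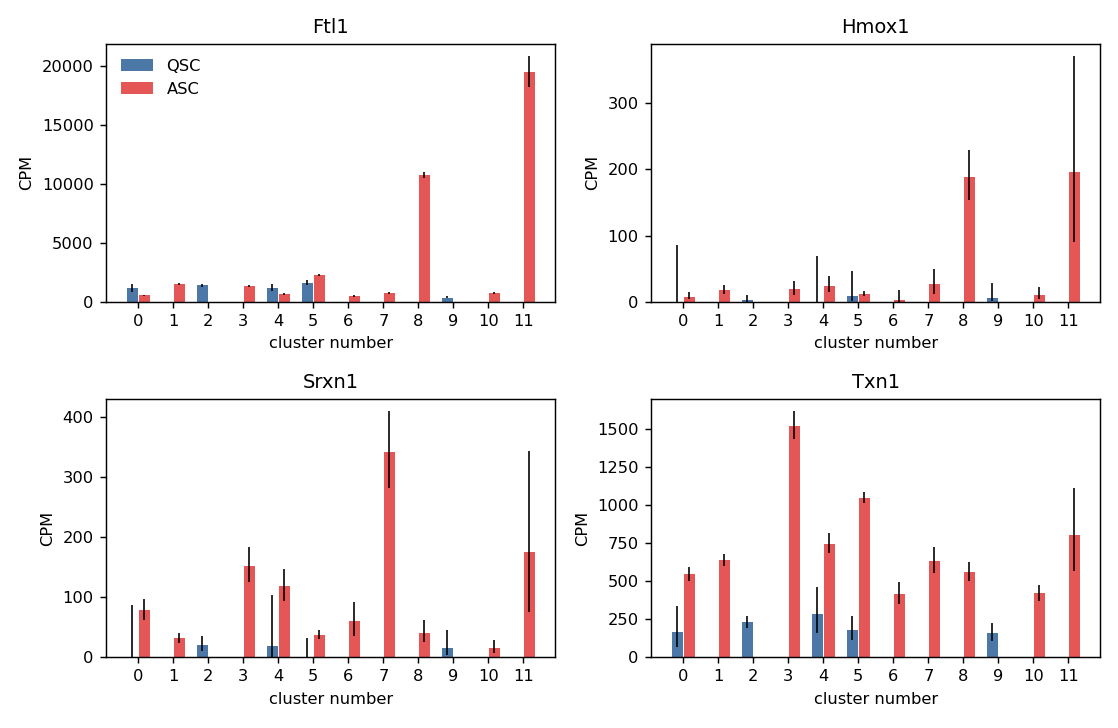
CPM of Ftl1, Hmox1, Srxn1 and Txn1 in each cluster of at least 20 barcodes, QSC in blue and ASC in red, with exact 95% Poisson intervals as black lines. A missing bar means a group of under 20 barcodes or 0 UMIs. Ftl1 and Hmox1 are high in clusters 8 and 11, Srxn1 in cluster 7 and Txn1 in cluster 3.

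The genes with the most similar pattern were named by Pearson's r of log2(CPM + 10) over these 15 groups, which share 2 libraries and differ in depth, among genes with at least 500 UMIs. For Ftl1 they were Cstb (0.97), S100a11 and Atp6v0c, and for Hmox1 Fxyd5 (0.96), Fcer1g and Tyrobp, of which the last pair were among the macrophage/monocyte markers. For Fth1 they were Ccl4 (0.91), Clec4e and Ccrl2. Txn1 was closest to Timp1 (0.95), and Srxn1 to Rgcc (0.94), Ube2d3 and Prdx6 (0.90), a peroxidase. Gclm was closest to Ap1s1 (0.91), Txnrd1 to Ift20 (0.87) and Prdx1 to 2610001J05Rik (0.78). Between pairs of members, r ran from -0.38 for Fth1 and Prdx1 to 0.80 for Ftl1 and Hmox1, with 0.77 for Srxn1 and Txn1 and 0.65 for Fth1 and Ftl1.

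Around the members, 99 other genes of iron, heme and redox handling were read from lists. Of the 82 past the floor over all kept barcodes, 9 were at least 2-fold higher and 20 at least 2-fold lower in ASC, beside 13.6% and 22.6% of all genes, with a median log2 ratio of 0.02. In contractile-low muscle the counts were 9 and 19 of 75, beside 17% and 23.1%. The split depends on the scaling. Under TMM the counts were 18 and 18 of 82 over all kept barcodes, beside 21.3% and 16.5% of all genes, and 19 and 14 of 75 in contractile-low muscle, beside 24.7% and 16.6%. In the iron list 0 of 17 were higher and 6 lower (2 and 5 under TMM), among them Cp, a ferroxidase (log2 -3.04, 191 to 23.3 CPM), and Slc40a1, the iron exporter (-1.86, 23.2 to 6.41 CPM). In the list of heme genes 2 of 9 were higher, Hp (5.05, from 1 QSC UMI), which encodes haptoglobin, and Hmox2 (1.03), and 3 were lower. These were Lrp1 (-2.17), the receptor for heme bound to hemopexin, Blvrb (-1.48), a biliverdin reductase, and Cd163 (-6.16, -8.52 to -4.46), a receptor of macrophages for hemoglobin bound to haptoglobin. Cd163 held 28 QSC and 3 ASC UMIs, which is below the 50 UMIs asked of a named gene, and was named after its values were seen. Hp held 254 ASC UMIs, of which 16 lay in contractile-low and 12 in contractile-high barcodes. In contractile-low muscle Hp was under the floor. There 0 of 7 heme genes were higher and 3 lower, beside 17% and 23.1% of all genes. Under TMM they were 1 and 2, beside 24.7% and 16.6%. Hp, Cd163 and Slc40a1 passed the floor over all kept barcodes only through the library where they were higher, so their direction was fixed.

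Of 8 regulators of the NRF2 response past the floor over all kept barcodes, 0 were at least 2-fold higher and 3 lower. The 3 were Maff (452.6 to 41.9 CPM, log2 -3.43) and Mafk (245 to 27.3 CPM, -3.17), both small MAF genes, and Nfe2l2 (135 to 65.5 CPM, -1.04), which encodes NRF2. Maff and Mafk were also among the leading genes of QSC cluster 2. In contractile-low muscle Sqstm1 (362 to 110 CPM, -1.72), a carrier that binds the NRF2 inhibitor KEAP1, joined them, so that 4 of 8 were lower, beside 23.1% of all genes there and 22.6% over all kept barcodes. Under TMM scaling Nfe2l2 fell inside the 2-fold line. Then 2 of 8 were lower over all kept barcodes, beside 16.5% of all genes, and 3 of 8 in contractile-low muscle, beside 16.6%. The fall was not shared by contractile-high barcodes, where 1 of 8 was higher and 1 lower, with a median log2 ratio of 0.04. Mafg was higher there (log2 1.36, from 5 QSC UMIs). Maff was lower (-1.09, from 4 QSC UMIs), with an interval that included no difference. Nfe2l2 stood at 0.39 (-0.78 to 1.86), from 6 QSC UMIs.

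The counts of the next lists stand beside 13.6% of all genes higher and 22.6% lower over all kept barcodes (21.3% and 16.5% under TMM). In contractile-low muscle the shares of all genes were 17% higher and 23.1% lower (24.7% and 16.6% under TMM). In the glutathione list 3 of 21 were higher and 5 lower (4 and 5 under TMM), which is near the shares of all genes before TMM. Gpx3, a secreted peroxidase, went from 4279 to 546 CPM (log2 -2.97), and Mgst1, a membrane glutathione transferase, from 170 to 29.3 CPM (-2.53), whereas Gsr, which regenerates glutathione, went from 27.5 to 97.3 CPM (1.82) and Gsto1 from 29.3 to 87.8 CPM (1.59). In the thioredoxin list 0 of 12 were higher and 2 lower, Sesn1 (-1.65) and Txnip (-1.49), the thioredoxin inhibitor. Under TMM 3 of the 12 were higher, in place of 0. In contractile-low muscle the mitochondrial peroxidase gene Prdx3 (1.42) and Prdx5 (1.09) were higher, and under TMM 4 of 12 were. In the superoxide list Ucp2 (1.42) was higher and Sod3 (-1.96) lower of 8, and 4 were higher and 1 lower under TMM. In contractile-low muscle 0 of 6 were higher and 1 lower, Cat (-1.11), and under TMM 2 and 0. Of the 430 ASC UMIs of Ucp2, 107 lay in that class, where its log2 ratio was 0.95 (-0.03 to 2.11). In the list of NADPH supply 3 of 7 were higher and 0 lower, led by Pgd (1.71) and Tkt (1.35), both of the pentose phosphate pathway. In contractile-low muscle Mthfd1l, of mitochondrial folate metabolism, was at 0 in QSC and held 116 UMIs in ASC, a log2 ratio of at least 2.65. Mthfd1l passed the floor there only through its ASC level, so it had to be higher in ASC. Over all kept barcodes Sesn1 and Sod3 passed only through their QSC level, so they had to be lower in ASC. The summed fibroblast markers, at 2537 CPM in QSC and 284 CPM in ASC over all kept barcodes and 968 and 447 CPM in contractile-low muscle, moved in the same direction as the genes lower in ASC, and their part was not tested.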

How the data were processed

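Libraries were made with droplet 3' chemistry. The deposited counts are whole numbers of UMIs per gene and barcode that came from Cell Ranger 6.0.2 per the file headers, while the submitters' processing notes name Cell Ranger 7.1.0, Seurat 4.1.0, R 4.1.2 and the build mm10. The annotation and the use of strand are not given in the sources used here. Barcodes were kept with at least 500 genes and at most 10% mitochondrial UMIs, since a limit of 1% leaves 86 QSC barcodes. Doublets were not removed. UMIs were summed per library or class and scaled to CPM. Levels carry Poisson, shares Clopper-Pearson and ratios conditional binomial intervals. Called means at least 2-fold, over genes in at least 3 kept barcodes with a mean of 10 CPM or more. A count of 0 was set to 3 counts (2.58 CPM in QSC, 0.337 CPM in ASC), and no ratio was made where both sides had at most 3. Clustering used Seurat 5.3.0 (R 4.3.3) with 1062 variable genes after leaving out 22 members and pathway genes, 10 components and a resolution of 0.6, and clusters were named from at least 3 detected markers. Contractile-low muscle barcodes had under 5% contractile UMIs and lay in no cluster named as another type. TMM came from edgeR 4.0.16, which made no test. Intervals and calls were run on simulated Poisson counts, the same model that the intervals assume. The simulation held no spread between barcodes, mice or libraries, so it checks the calculation only. From each pathway list the text draws on the 2 highest and 2 lowest ratios past 2-fold with at least 50 UMIs. Nfe2l2, Sqstm1 and Cd163 are named outside that rule. The members and lists were chosen with earlier results of these data known.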

Additional observations from a re-analysis of the deposited data

How the results depend on the processing

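No paired analysis was possible because each group had 1 library. Over all kept barcodes the count of members at least 2-fold higher, 2 as reported, was 5 at a mitochondrial limit of 1% (beside 22.5% of all genes at that setting) or in contractile-high barcodes (18.3%), 4 under TMM scaling (21.3%), 3 at a limit of 5% (13.3%), at least 1000 genes (14.5%), equal weights (13.3%), relative to the median gene (15.8%), without the 5% deepest barcodes (12.5%) or with a floor of 1 CPM (14.7%) or none (13.4%), and 1 in contractile-low muscle (17%) or with a floor of 50 CPM (15.3%). At the 1% limit 1 member, Tfrc, was at least 2-fold lower in place of 0, from 3 QSC and 12 ASC UMIs, beside 12% of all genes. In contractile-low muscle the count of higher members was 2 in place of 1 at a contractile limit of 10% (17%), with equal weights (12.9%) or under TMM scaling (24.7%). In contractile-high barcodes it was 3 in place of 5 at a limit of 10% (17%), and 1 member was lower in place of 0 at 2.5% (15.2%). Between classes at a limit of 2.5%, 1 member was higher in place of 0 in QSC (21.1%) and 0 were lower in place of 1 in ASC (29.8%). The cause was not tested. Among log2 ratios whose reported interval excluded 0, Fth1 in contractile-low muscle changed sign under TMM (0.056). With equal weights, Txn1 (0.15) and Prdx1 (0.046) between classes in ASC did so too. Ratios whose interval included 0 could change sign as well. Over all kept barcodes, Prdx1 went from -0.012 to 0.087 and Tfrc from -0.074 to 0.025 relative to the median gene. The scalings of the classes, and the alternatives without erythrocyte-marker barcodes or the top barcode of a gene, and the counts of the pathway lists under TMM, were chosen after seeing the data. Txn1 stayed between 1.52 and 2.08 and Srxn1 between 0.79 and 3.44 over the alternatives for all kept barcodes. The 1 QSC library limits Tfrc, Nqo1 and Hmox1, with 11, 1 and 17 UMIs.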

Other observations

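The 99 pathway genes were also read in ASC macrophage/monocyte-like against contractile-low ASC barcodes. Of 77 past the floor, 26 were at least 2-fold higher and 17 lower, beside 21.2% and 26.8% of all genes. In the superoxide list 5 of 8 were higher and 0 lower, and in the heme list 5 of 9 were higher and 0 lower, with a median of 1.33. In the glutathione list 6 of 18 were higher and 9 lower.

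The barcodes left out by the filter held member UMIs as well. The 250 QSC barcodes had Fth1 at 5595 CPM and Ftl1 at 484 CPM, which is 0.0865 Ftl1 UMIs per Fth1 UMI (0.0689 to 0.107). The 182 ASC barcodes had Fth1 at 3689 CPM and Ftl1 at 1531 CPM, a ratio of 0.415 (0.357 to 0.481). Srxn1 stood at 16.3 CPM (3 UMIs) and 140 CPM (23 UMIs) in these barcodes, and Txn1 at 87.0 CPM (16 UMIs) and 689 CPM (113 UMIs).

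In ASC, 2 barcodes took 81.5% and 52.6% of their UMIs from 5 erythrocyte markers, and the next highest 0.151%. Without them the counts of members at least 2-fold higher and lower over all kept barcodes were again 2 and 0. Of the 9161 ASC UMIs of these markers, 8887 lay in contractile-low muscle, and the counts of that class were not repeated without the 2 barcodes.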
